A study of Mus musculus with 14 samples.

Results

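The embryos described here are the *Tet/Dnmt*-6KO embryos, in which 6 genes (*Tet1*, *Tet2*, *Tet3*, *Dnmt1*, *Dnmt3a* and *Dnmt3b*) were targeted at once by a cytosine base editor injected into the zygote. The 6KO table holds 12 of the 88 embryos in the 7 tables of the series. Of these, 9 carry a number and were taken as edited, 3 at each of E6.5, E7.5 and E8.5 (embryonic day 6.5, 7.5 and 8.5). The other 3, 1 at each stage, have names ending in C and were taken as controls. The labels give 2 samples for the 6KO group, numbers 1 and 2, which match 6 of the edited embryos, and the 3 embryos with number 3 match no labelled sample.

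All embryos came from C57BL/6 males mated to F1 females, and per the study's methods the females were B6D2F1 and the males carried an *Oct4-EGFP* transgene. The edited zygotes received mRNA of the editor hA3A-eBE3-Y130F with 6 single guide RNAs (sgRNAs), whereas control zygotes received the editor with no sgRNA, at a lower concentration of editor mRNA than the 6KO zygotes. Editing acted in the embryo itself, so each embryo is a founder of its own that may be a mosaic of cells with different alleles. Genomic DNA of each embryo was amplified at the 6 sites and sequenced, and each value is the percentage of reads carrying a given base at a reference position. Read depth is not given, so no counting interval accompanies a value, and the spread between embryos is the measure of error.

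DNMT3A and DNMT3B place methyl groups on cytosines that carry none, and DNMT1 copies the pattern onto the new strand after replication. TET1, TET2 and TET3 oxidise 5-methylcytosine, a step on the way back to unmodified cytosine. Much of the methylation of the mouse genome is removed after fertilisation and laid down again around and after implantation, and these embryos were collected after implantation. The editor is a fusion of a nicking Cas9 with a deaminase derived from human APOBEC3A and an inhibitor of uracil repair. The C it deaminates within the protospacer is read as T, and a CAG or TGG codon can thereby be turned into a stop codon.

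The protospacers are shown first because every later value is read at one of their bases. They are written 5′ to 3′ on the guide strand, counted from 1 at the end far from the PAM (the short motif Cas9 needs beside the site) to 20 beside it. Capitals mark each C whose change to T makes the intended stop.
Tet1: acacagtCaggagaaacgca
Tet2: aattCaggttctcaacgagc
Tet3: ggtagacCagaagcccgact
Dnmt1: atcaatCagtggtggctcag
Dnmt3a: gttCCaggggtcttccttaa
Dnmt3b: gtatCaggtaaagcctgaga

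In GRCm38, each protospacer and its PAM were found at 1 place, which was annotated with GENCODE M21. The *Tet1* site (chr10:62839073-62839092, minus strand) lies in exon 4 of 13 of Tet1-206, and C8T makes Q1071* of 2039 residues. The *Tet2* site (chr3:133488137-133488156, minus strand) lies in exon 3 of 12 of Tet2-204, and C5T makes Q174* of 1920 residues. The *Tet3* site (chr6:83404641-83404660, minus strand) lies in exon 4 of 12 of Tet3-203, and C8T makes Q178* of 1803 residues. The *Dnmt1* site (chr9:20923746-20923765, minus strand) lies in exon 18 of 39 of Dnmt1-201, and C7T makes Q469* of 1620 residues. In *Dnmt3a* the guide (chr12:3899923-3899942, minus strand) is on the strand opposite to the coding one and falls in exon 15 of 23 of Dnmt3a-201. C5T makes W577* of 908 residues, as does the same change at C4, and C5, which the table gives with more decimals, was taken as the target. The *Dnmt3b* site (chr2:153666095-153666114, plus strand) covers the last 7 bases of exon 7 of 24 of Dnmt3b-201 and 13 bases of the following intron, and C5T makes Q225* of 860 residues. In all 6 genes the catalytic domain is known to lie towards the C terminus.

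The base read most often at each position is shown next for the edited embryos. In the following sequences, capitals mark each base at which the most read base of an embryo differed from the reference. Bases were taken position by position, so a sequence need not be that of a single allele.
Tet1 in 8 of 9 embryos: acacagtTaggagaaacgca
Tet1 in E7.5 number 3: aTaTagtTaggagaaacgca
Tet2 in 9 of 9 embryos: aattTaggttctcaacgagc
Tet3 in 6 of 9 embryos: ggtagaTTagaagcccgact
Tet3 in E6.5 numbers 2 and 3: ggtagaGTagaagcccgact
Tet3 in E6.5 number 1: ggtagacTagaagcccgact
Dnmt1 in 8 of 9 embryos: atTaatTagtggtggctcag
Dnmt1 in E6.5 number 3: atcaatTagtggtggctcag
Dnmt3a in 9 of 9 embryos: gttTTaggggtcttccttaa
Dnmt3b in 9 of 9 embryos: gtatTaggtaaagcctgaga
The target was T in every one of these sequences, and they differed only at bystanders, the other C bases near the target. In E6.5 number 2, T and G were tied at *Tet3* C7 at 35% each, and G is shown. In E6.5 number 1 the C shown at this base made up only 39% of reads.

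The first question was how completely each of the 6 targets was converted in the embryos named 6KO, which need not reflect the yield of the injection. The 54 target values lay between 93.2% and 99.9% T (median 98.5%), and 50 of them were 95% or more. In the 3 controls it ran from 0% to 2.42%. All 6 targets were therefore higher in every edited embryo than in any control. Over all 32 reference C of the 6 windows, 31.2% were called by the same rule (lowest edited embryo above highest control). Each of the 6 differences between edited and control embryos gave an adjusted p of 0.00455 (exact permutation test, two-sided, 9 embryos against 3, Benjamini-Hochberg over 6 genes), which is the smallest this design allows. The edited embryos bear the name of these very mutations, so this p-value is only a description.

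*Dnmt1*, the maintenance enzyme, had the highest mean T share, but it did not differ from *Dnmt3b* beyond their spread (*Dnmt1* minus *Dnmt3b* 0.0623 points, adjusted p 0.977 by an exact sign-flip permutation test), and the sign turned with labelled numbers alone (-0.0882 points) and without number 2 (-0.15 points). Its target C7 had T in 96.1%, 99.9% and 99.9% of reads in E6.5 numbers 1, 2 and 3, in 99.8%, 99.5% and 97.9% at E7.5, and in 99.5%, 99.9% and 99.9% at E8.5. Of the 9 embryos, E6.5 number 1 and E7.5 number 3 stood below the rest. In the controls the share was 0.947% at E6.5, 0.712% at E7.5 and 0.372% at E8.5. The mean over edited embryos was 99.2% ± 1.32 (SD, n = 9).

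*Dnmt3b*, a de novo methyltransferase, was converted almost as far. At C5, T made up 99.3%, 99.9% and 99.9% of reads at E6.5, 99.2%, 98.9% and 99.2% at E7.5, and 98.9%, 99.1% and 97.5% at E8.5, again in the order of the embryo numbers. Here the E6.5 embryos were the highest, and E8.5 number 3 was the lowest. The controls had 1.93%, 0.542% and 1.51% at E6.5, E7.5 and E8.5. The mean over edited embryos was 99.1% ± 0.698 (SD, n = 9).

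*Dnmt3a*, the other de novo methyltransferase, stayed lower in every embryo than *Dnmt3b*. Its C5 had T in 98.5%, 98% and 96.4% of reads at E6.5, in 98.5%, 98.7% and 96.7% at E7.5, and in 97.5%, 98.2% and 96.4% at E8.5. Within each stage the embryo with number 3 was the lowest, which is a description, and whether a number marks a shared factor is not settled. The controls had 2.42%, 0.437% and 0.912%, the first being the highest control value at any target. The mean over edited embryos was 97.7% ± 0.930 (SD, n = 9). C4, which makes the same stop, had T in 96% to 99% of reads, within 0.522 points of C5 in all 9 embryos, although C4 is given only to the nearest percent.

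Among the Tet genes, *Tet1* had the lowest mean T share but also the lowest mean share of unconverted C, 1.81% against 2.38% at *Tet2* and 2.28% at *Tet3*, the rest being A and G. With T over T plus C in place of T, *Tet1* lay above *Tet2* by 0.55 points and above *Tet3* by 0.45 points, and neither order passed a test. Its C8 had T in 94.8%, 98.5% and 96.2% of reads at E6.5, in 95.1%, 97.4% and 97.9% at E7.5, and in 96.9%, 98.4% and 96.5% at E8.5. Low and high embryos occurred at each stage. The controls had 0.0747%, 0.265% and 0.923% at E6.5, E7.5 and E8.5. The mean over edited embryos was 96.9% ± 1.35 (SD, n = 9).

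*Tet2* had the largest difference in points between E6.5 and later means among the targets, but the stage test did not pass after adjustment. At C5, T made up 93.2%, 97.4% and 94.9% of reads at E6.5, 98.9%, 99% and 99.2% at E7.5, and 99.2%, 98.9% and 97.5% at E8.5. All 3 E6.5 embryos lay below all 6 later ones, the closest being E6.5 number 2 at 97.45% and E8.5 number 3 at 97.53%. The controls had 0.114% at E6.5, 0.186% at E7.5 and 0% at E8.5. The mean over edited embryos was 97.6% ± 2.16 (SD, n = 9), the widest spread of the 6 targets.

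*Tet3* had intermediate values. Its C8 had T in 94.8%, 97.5% and 96.3% of reads at E6.5, in 99%, 99.1% and 96.9% at E7.5, and in 96.8%, 98.6% and 98.8% at E8.5. The E6.5 embryos were among the lower ones, but E7.5 number 3 and E8.5 number 1 overlapped with them. The controls had 0.0577%, 0.213% and 0.0834%. The mean over edited embryos was 97.6% ± 1.49 (SD, n = 9).

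**Figure D1:**
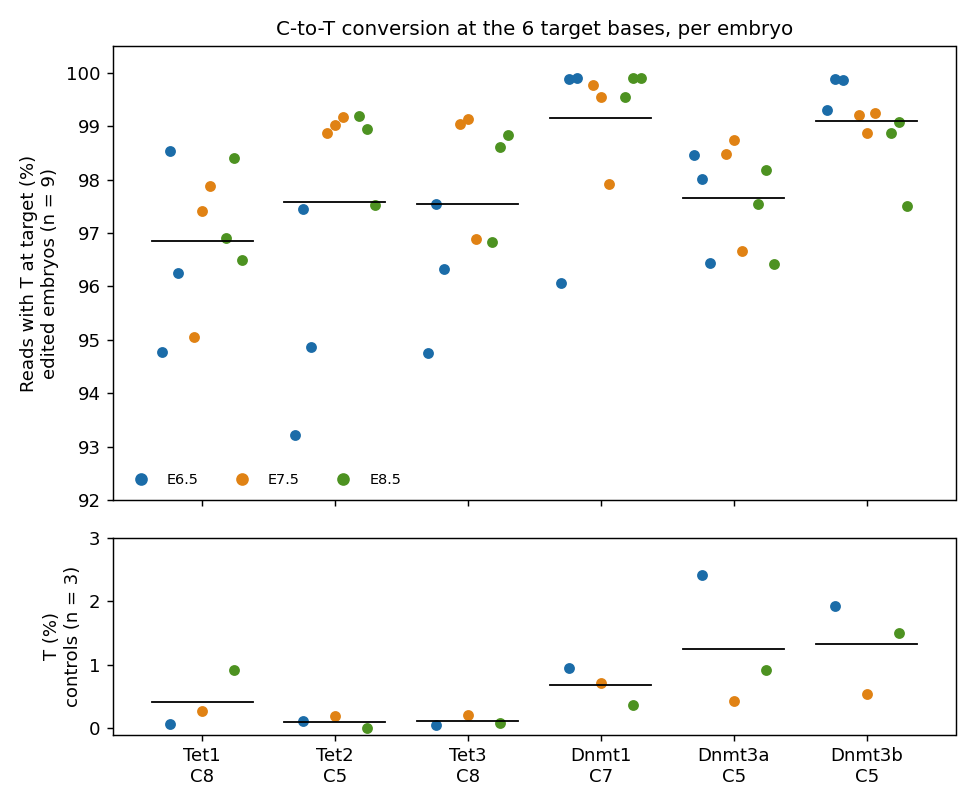
Share of reads with T at the target base of each gene, in percent, for 9 edited embryos (upper panel) and 3 control embryos (lower panel); each point is 1 embryo, colour gives the stage, and black lines are means. All edited embryos lay at 93.2% or more and all controls at 2.42% or less, with the E6.5 embryos lowest at Tet2 and highest at Dnmt3b. Neither stage difference passed after adjustment as plain shares.

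The control embryos were not equally free of T. At the 3 Dnmt targets their T share ran from 0.372% to 2.42%, and at the 3 Tet targets from 0% to 0.923%. The 0.923% was at *Tet1* C8 in the E8.5 control, where A made up 1.54% of reads. In that window, positions that are not C were read as a wrong base at a mean of 2.67%. The E6.5 control had the highest value at each Dnmt target and also had T in 11% of reads at *Dnmt1* C3, where the other controls had 1% and 0%. In all 9 edited embryos *Dnmt1* C7 had more T than C3, by 0.766 to 60.9 points, whereas in the E6.5 control C7 minus C3 was -10.1 points. The source of the T reads in controls was not tested.

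Whether genes differed within the same embryos was tested on paired differences over the 15 pairs of genes. *Tet1* minus *Dnmt1* was -2.30 points (SD 1.44) and *Tet1* minus *Dnmt3b* was -2.24 points (SD 1.46), with *Tet1* lower in 9 of 9 embryos. *Tet3* minus *Dnmt1* was -1.61 points (SD 1.04) and *Dnmt3a* minus *Dnmt3b* was -1.43 points (SD 1.03), also with the first gene lower in 9 of 9 embryos. These 4 pairs gave an adjusted p of 0.0146 each (exact sign-flip permutation test, two-sided, Benjamini-Hochberg over 15 pairs), and the other 11 pairs did not pass. *Tet2* minus *Dnmt1* was -1.58 points, with *Tet2* lower in 8 of 9 embryos and an adjusted p of 0.0820 by the same exact test. With T over T plus C this pair passed (adjusted p 0.0146, exact permutation test) and *Tet1* minus *Dnmt1* did not (-1.43 points, adjusted p 0.0670), so 4 pairs passed again but not the same 4. *Tet2* minus *Dnmt1* also passed as logits (adjusted p 0.0488) and without E7.5 number 3 (adjusted p 0.0234, both by the exact permutation test). Differences among the Tet genes did not pass, with adjusted p from 0.368 to 0.977 by the exact test. When the embryos of any 1 number or the E6.5 embryos were left out, 0 of 15 pairs passed. With 6 embryos the smallest exact p is 0.0312, which cannot pass when only a few of 15 pairs reach it.

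The gene with the lowest T share changed from embryo to embryo. *Tet2* was lowest in all 3 E6.5 embryos, at 93.2%, 97.4% and 94.9%. *Tet1* was lowest in E7.5 numbers 1 and 2, at 95.1% and 97.4%. *Dnmt3a* was lowest in E7.5 number 3 and in E8.5 numbers 2 and 3, at 96.7%, 98.2% and 96.4%. *Tet3* was lowest in E8.5 number 1, at 96.8%. *Dnmt1* and *Dnmt3b* were the lowest in 0 of 9 embryos, and the most converted gene was *Dnmt1* in 6 embryos and *Dnmt3b* in 3. In 5 embryos the lowest gene was within 0.235 points of the next, so there the order of the 2 lowest genes rests on a small difference. The widest gap was at *Tet1* in E7.5 number 1, 3.42 points under the next gene, where A plus G made up 3.46% of reads and unconverted C 1.48%. As T over T plus C, *Tet1* was at 98.47% and *Dnmt3a* at 98.56% in that embryo. All 6 targets were at 95% or more in 7 of 9 embryos and at 97% or more in 3 of 9.

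Reads that were neither T nor C made up most of what was left at *Tet1* in some embryos. At *Tet1* C8, A plus G ran from 0.0786% to 4.06% in the edited embryos and from 0.189% to 1.85% in the controls. The 1.85% was in the E8.5 control, whose *Tet1* window had a mean of 2.67% wrong bases at positions that are not C. In E6.5 number 1, A plus G was 4.06%, of which 3.80% was A, against 1.17% unconverted C. In E7.5 number 1 it was 3.46%, against 1.48% C. An A at this base encodes Q1071K and a G encodes Q1071E, so such reads carry neither the stop nor the wild-type codon. At the *Tet2*, *Tet3*, *Dnmt3a* and *Dnmt3b* targets A plus G stayed at or under 0.858% in all edited embryos. At *Dnmt1* C7 it reached 2.02%, in E7.5 number 3.

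That last value went with an unusual read population. In the *Dnmt1* window of E7.5 number 3, 14 of the 20 positions that are not C had a second base at 2%, in shares rounded to whole percent. In the *Dnmt1* window of E6.5 number 1, 17 of 20 positions had a second base at 1% or more, and 15 of these had it at 3%. These are also the 2 embryos with the lowest *Dnmt1* conversion, 97.9% and 96.1%. Of the 72 windows of the 6KO table, 69 had a mean share of wrong bases under 0.5% at positions without C, and the remaining window was that of *Tet1* in the E8.5 control, at 2.67%. The tables have no line for insertions or deletions, and the origin of these reads was not tested.

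The next question was how many cells of an embryo could still hold a wild-type allele at any of the 6 genes. Reads do not say which alleles share a cell, so only bounds can be given. The lower bound is the largest share of C at any 1 target, reached if remaining wild-type alleles sit together. The upper bound is 2 times the sum of the C shares over the 6 targets, reached if each remaining allele sits in a cell of its own. Both assume that reads sample all alleles evenly. At *Dnmt3a* the smaller C share of C4 and C5 was used, as a wild-type allele needs C at both. This is the most that can be wild type there, so a lower bound set by *Dnmt3a* holds only if both C remain on the same reads. C4 is given in whole percent, so rounding can also lower the upper bound.

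At E6.5 the bounds were 6.67% to 33.5% in number 1, 2.53% to 15.3% in number 2 and 5.11% to 25.4% in number 3. At E7.5 they were 1.48% to 10.53%, 2.21% to 12% and 3.01% to 18.5% in numbers 1, 2 and 3. At E8.5 they were 3.09% to 19.6%, 1.77% to 13.1% and 3.41% to 24.8%. The stages overlapped, and the median upper bound over the 9 embryos was 18.5%, with 6 of 9 embryos under 20%. The 3 Tet genes contributed more than the 3 Dnmt genes in 9 of 9 embryos, with mean contributions of 12.9 ± 5.78 points and 6.25 ± 2.49 points (SD, n = 9). The lower bound was set by *Tet1* in 3 embryos, by *Tet2* in 3, by *Tet3* in 2 and by *Dnmt3a* in 1. The last was E8.5 number 2, where the C share of *Tet1* alone gave 1.51%. With C5 alone at *Dnmt3a*, the upper bounds ran from 11.4% to 34.1%, with a median of 19.1%.

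A stricter reading counts every base other than T as a missing stop. By this reading, the share of cells with stop codons in all 12 alleles was at least 53.1% in E6.5 number 1 and at least 86.2% in E8.5 number 2, which were the lowest and highest embryos, with a median of 78.7%. The highest upper bound then rose from 33.5% to 46.9%, both in E6.5 number 1. In that embryo C at *Dnmt1* was 3.25% beside the second bases at 3% described above, and subtracting the mean share of wrong bases of each window lowered its upper bound to 27.7%.

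**Figure D2:**
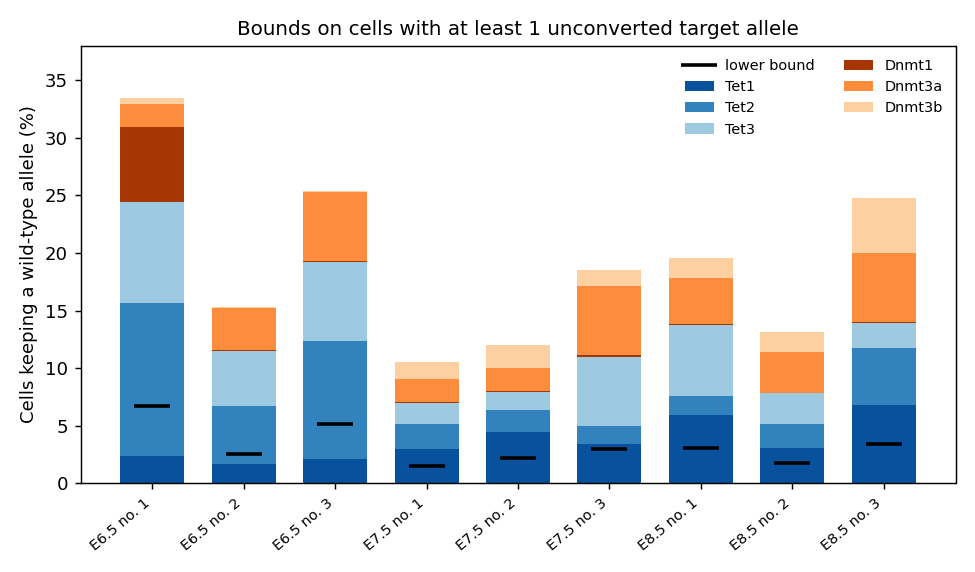
Bounds on the percentage of cells that keep at least 1 wild-type allele, for each edited embryo. Stacked bars give 2 times the share of C at each target (at Dnmt3a the smaller of C4 and C5) and add up to the upper bound. The black line is the lower bound. Upper bounds ran from 10.53% in E7.5 number 1 to 33.5% in E6.5 number 1, with a larger part from the Tet genes in each embryo.

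Stages were compared next, with 3 embryos each. At *Tet2* C5 the means were 95.2% ± 2.14 at E6.5, 99% ± 0.152 at E7.5 and 98.5% ± 0.894 at E8.5 (SD, n = 3). *Dnmt3b* C5 went the other way, with 99.7% ± 0.329, 99.1% ± 0.202 and 98.5% ± 0.852 (SD, n = 3), and all 3 E6.5 embryos lay above all 6 later ones. Neither passed after adjustment, with p of 0.0250 for *Tet2* and 0.0179 for *Dnmt3b* and adjusted p of 0.0750 for both (exact permutation test of the sum of squares between stages, 1680 assignments, Benjamini-Hochberg over 6 genes). On the logit scale *Dnmt3b* passed, with an adjusted p of 0.0429 by the exact test. The other 4 targets had adjusted p from 0.364 to 0.804 by the same exact test. Over all 32 reference C, 12.5% had an unadjusted p under 0.05 in this test and 0% had an adjusted p under 0.05.

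At 4 of the 5 named bystanders T varied far more between embryos (SD 20.2 to 24 points) than at the targets (SD 0.698 to 2.16 points), and the exception was *Dnmt3a* C4 (SD 1.12 points). The targets and *Dnmt3a* C4 (mean 97.7%) lay near full conversion, where shares have less room to vary in points. The named bystanders are the 5 of 26 reference C other than the targets with a mean T share of at least 5% in the edited embryos. They were *Tet1* C2 and C4, *Tet3* C7, *Dnmt1* C3 and *Dnmt3a* C4. In 4 of them, all except *Tet1* C2, every edited embryo was above every control. Over all 32 reference C, targets included, 31.2% met this rule. The bystanders were named by their T share in the edited embryos, so this count is only a description. *Tet3* C7, *Dnmt1* C3 and *Dnmt3a* C4 gave an adjusted p of 0.0394 each and *Tet1* C4 one of 0.118 (exact permutation test, two-sided, Benjamini-Hochberg over 26 bases), against 11.5% of the 26 bases called. *Tet1* C4 passed as logits (adjusted p 0.0295) and with the control of the same stage subtracted (adjusted p 0.0254, both exact permutation tests), which gave 4 calls. The 3 calls were lost when the stage was a block, when the E6.5 embryos were left out and when the embryos of any 1 number were left out, as fewer splits of the embryos remain.

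*Dnmt1* C3 lies 4 bases before the target and its change to T is synonymous. T made up 93%, 95% and 39% of reads at E6.5, 99%, 97% and 85% at E7.5, and 80%, 60% and 92% at E8.5. E6.5 number 3 stood apart at 39%, although the target of the same embryo was at 99.9%. The mean was 82.2% ± 20.2 (SD, n = 9), against 11%, 1% and 0% in the E6.5, E7.5 and E8.5 controls.

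*Tet1* C4, also synonymous as T, had lower values in the youngest embryos. T made up 13%, 19% and 9% of reads at E6.5, 41%, 31% and 75% at E7.5, and 47%, 47% and 26% at E8.5. All 3 E6.5 embryos lay below all 6 later ones. The difference between stages had an adjusted p of 0.137 (exact permutation test, Benjamini-Hochberg over 5 bystanders) and did not pass.

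*Tet1* C2, whose change to T encodes H1069Y, was highly converted in 1 embryo, and 6 of 9 edited embryos lay above the highest control. T made up 4%, 2% and 2% of reads at E6.5, 5%, 4% and 69% at E7.5, and 0% in all 3 E8.5 embryos. The value of 69% belongs to E7.5 number 3, which also had the highest T at *Tet1* C4, 75%. The stage test gave an adjusted p of 0.0357 (exact permutation test over 5 bystanders). By the exact test the adjusted p was 0.0536 without E7.5 number 3 and 0.423 without E6.5 number 1. *Tet1* C2 met the 5% naming threshold only through E7.5 number 3, with a mean of 2.12% without it. Naming and test thus rest on the same value, and the result is only a description. Over all 32 reference C, 0% had an adjusted p under 0.05 in the stage test. Edited and control embryos overlapped, with controls at 0%, 0% and 1%. The 1% was in the E8.5 control, whose *Tet1* window had a mean of 2.67% wrong bases.

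*Tet3* C7, directly before the target C8, was the 1 bystander at which bases other than T were common. T made up 31%, 35% and 18% of reads at E6.5, 83%, 63% and 72% at E7.5, and 88%, 51% and 51% at E8.5. G made up 28%, 35% and 76% at E6.5, 5%, 29% and 5% at E7.5, and 5%, 1% and 45% at E8.5. A stayed at 10% or less in 8 embryos and made up 46% in E8.5 number 2. In all 3 controls C7 was read as C in 100% of reads.

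The product at *Tet3* C7 thus varied from embryo to embryo. T led in E7.5 and E8.5 embryos, G led in E6.5 number 3 at 76%, and unconverted C led in E6.5 number 1 at 39%. In E8.5 number 3, T and G shared the reads at 51% and 45%, and in E8.5 number 2, T and A did so at 51% and 46%. A change to T is synonymous here, whereas A or G encodes D177E, in the codon before the stop. Among converted reads, A and G together took 6.49% in E7.5 number 3 and 81.4% in E6.5 number 3, the lowest and highest of the 9. The T share of the E6.5 embryos lay below that of all later embryos, with an unadjusted p of 0.0357 and an adjusted p of 0.0893 by the exact permutation test over 5 bystanders, which did not pass. Among the 6 targets and 5 named bystanders, E6.5 lay fully below later stages at *Tet2* C5, *Tet1* C4 and *Tet3* C7. It lay fully above them at *Dnmt3b* C5, and the rest overlapped. The share of such separations over all 32 reference C was not counted, so they are only a description.

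**Figure D3:**
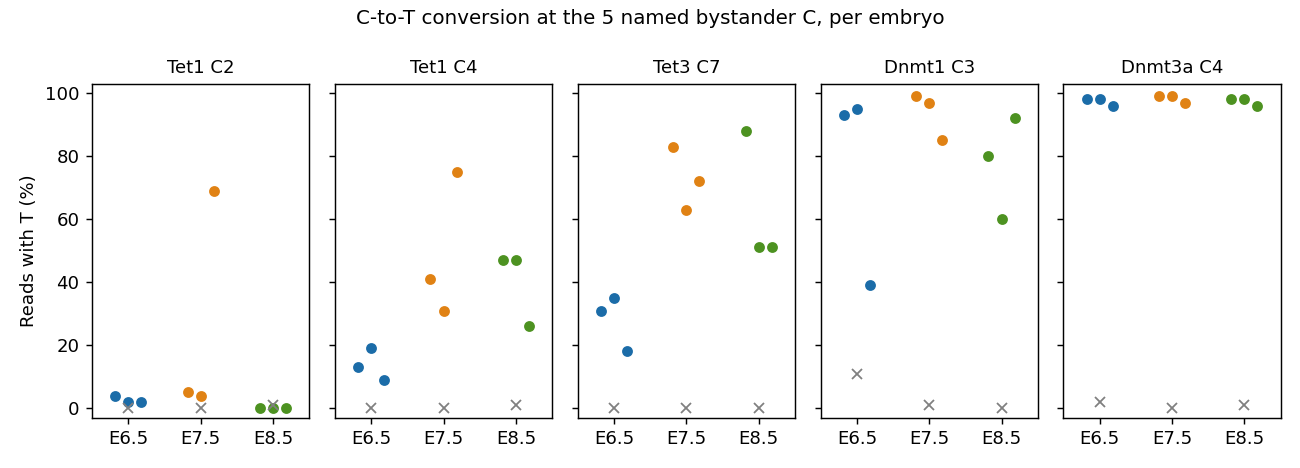
Share of reads with T, in percent, at the 5 named bystander C by stage; each dot is 1 of 9 edited embryos and each cross 1 of 3 controls. Dnmt3a C4 stayed between 96% and 99%, Tet1 C4 and Tet3 C7 were lower in the 3 E6.5 embryos than in all later ones, and Tet1 C2 was high in 1 embryo at 69%. The stage differences at Tet1 C4 and Tet3 C7 did not pass after adjustment.

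**Figure D4:**
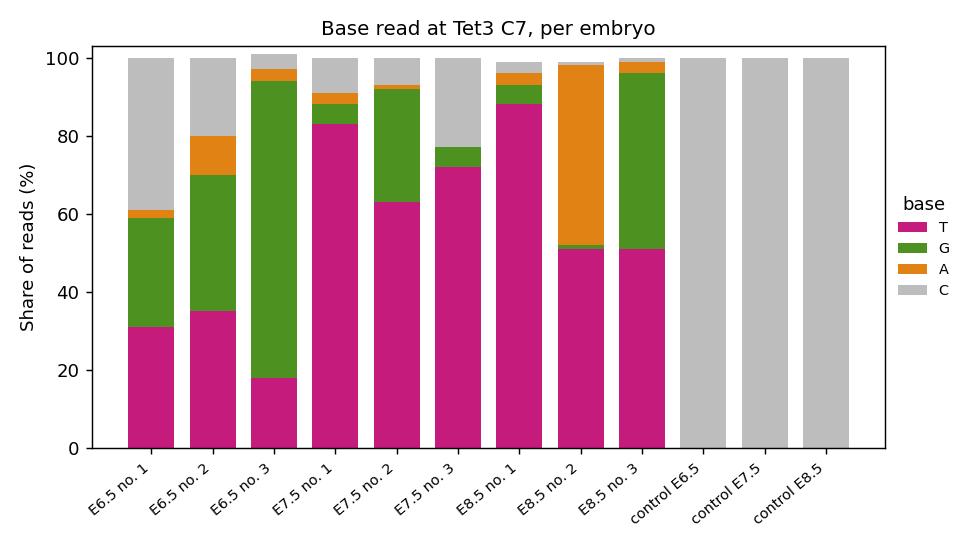
Base read at Tet3 C7 in each edited embryo and control, as stacked percentages of reads, which are rounded to whole percent in the table. G reached 76% in E6.5 number 3 and A reached 46% in E8.5 number 2, while all 3 controls had only C.

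Position and the base before the C were compared with conversion over the 32 reference C, as a description. The 11 C at positions 2 to 8 had mean T shares from 9.56% to 99.2%. The lowest, *Tet1* C2, rests on E7.5 number 3 and had a mean of 2.12% without it, below the highest mean at positions 9 to 20. Of these, the 6 that follow a T ran from 82.2% to 99.2%, and the 5 that follow another base ran from 9.56% to 97.7%. The 17 C at positions 9 to 20 had mean T shares of 3.67% or less, and the 4 C before position 1 had 0.889% or less. The largest value past position 8 was at *Tet2* C13, a synonymous site named here after its values were seen, where T made up 14% of reads in E6.5 number 1 and 17% in E8.5 number 3, against 1% or less in the other 7 embryos and 0% in controls. At *Dnmt3b* both other C, C14 and C15 in the intron, had 0% T in all embryos. Bases within a window share reads, and the 6 guides are too few to separate position from neighbouring base.

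The last comparison set the 6KO embryos beside embryos with fewer targeted genes that used the same guides. These were 4KO (the 3 Tet genes and *Dnmt1*), 5KO (the 3 Tet genes, *Dnmt3a* and *Dnmt3b*) and *Dnmt*-TKO (the 3 Dnmt genes) at the stages both tables hold. Against 4KO embryos at E7.5 and E8.5 (6 against 6), all 3 Tet targets were lower in 6KO embryos. *Tet1* was at 97% ± 1.18 against 99.6% ± 0.343, *Tet2* at 98.8% ± 0.628 against 99.9% ± 0.0158 and *Tet3* at 98.2% ± 1.07 against 99.8% ± 0.0635 (SD, n = 6 each). Each had an adjusted p of 0.00649 (exact permutation test, two-sided, Benjamini-Hochberg over 12 comparisons), and the groups did not overlap at any of the 3. Among the 12 comparisons, *Dnmt3a* against 5KO was the only other one without overlap. *Dnmt1* did not pass, at 99.4% ± 0.759 against 99.1% ± 0.463 (exact permutation adjusted p = 0.558), but with T over T plus C it was higher in 6KO embryos by 0.62 points (exact permutation adjusted p = 0.00519).

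Against 5KO embryos of the same stages, *Tet1* and *Dnmt3a* were lower in 6KO embryos. The difference at *Tet1* was -1.75 points, with 97% against 98.8% ± 0.710 (exact permutation adjusted p = 0.0173). At *Dnmt3a* it was -1.81 points, with 97.7% ± 0.966 against 99.5% ± 0.202 (exact permutation adjusted p = 0.00649). *Tet2*, *Tet3* and *Dnmt3b* did not pass, with differences of 0.43, -0.25 and 0.81 points. Against *Dnmt*-TKO embryos at E6.5 to E8.5 (9 against 9), *Dnmt3b* was higher in 6KO embryos by 1.39 points, at 99.1% ± 0.698 against 97.7% ± 1.24 (permutation adjusted p = 0.0173, over all 48620 splits), while *Dnmt1* and *Dnmt3a* did not pass. Of the 6 comparisons that passed, 5 were lower and 1 was higher in 6KO embryos, and with T over T plus C 7 passed, of which 5 were lower and 2 higher. With all stages of both tables, 2 of the 6 were lost, *Dnmt3b* against *Dnmt*-TKO (1.07 points, adjusted p 0.0631) and *Tet1* against 5KO (-1.34 points, adjusted p 0.0910, both permutation tests over all splits). Every group has its own table, and *Dnmt*-TKO zygotes received less editor mRNA, so table, dose and number of guides cannot be told apart. With the embryos of any 1 number left out 0 passed, but 4 against 4 cannot go below an exact p of 0.0286, and the differences at *Tet1* (-1.97 to -2.95 points against 4KO) and *Dnmt3a* (-1.19 to -2.23 points against 5KO) kept their sign. *Dnmt3b* against *Dnmt*-TKO, with 6 against 6, ran from 0.81 points without number 2 to 1.82 points without number 3.

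**Figure D5:**
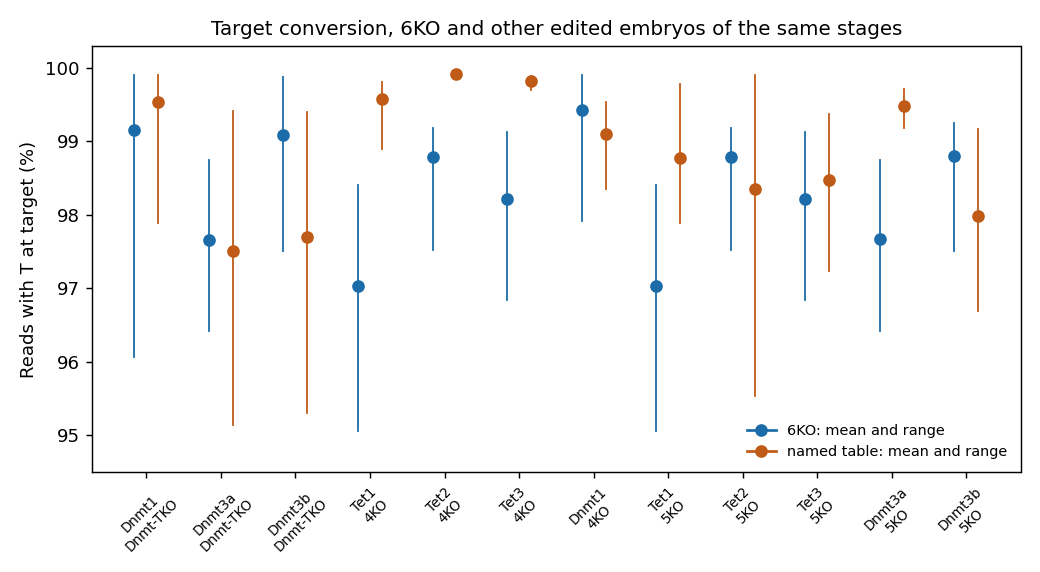
Share of reads with T at the target, in percent, in 6KO embryos (blue) and in embryos of the table named under each gene (orange), at shared stages; dots are means and lines run from the lowest to the highest embryo (9 against 9 for Dnmt-TKO, 6 against 6 for the others). The 6KO ranges lie below the 4KO ranges at Tet1, Tet2 and Tet3 and below the 5KO range at Dnmt3a, and the ranges overlap in all other comparisons shown.

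Bystanders at E7.5 and E8.5 are given by table as a description. At *Tet3* C7, G averaged 15% in 6KO, 47.5% in 4KO and 43.8% in 5KO embryos, with ranges of 1% to 45%, 17% to 70% and 7% to 72% that overlap. T at the same base averaged 68.0%, 36.5% and 45.8%. At *Dnmt1* C3, T averaged 85.5% in 6KO, 77.5% in 4KO and 60.5% in *Dnmt*-TKO embryos, and single embryos ran from 25% to 99% over the 3 tables.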

How the data were processed

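Base editing was measured by targeted amplicon sequencing of genomic DNA from single embryos. Per the labels, DNA was extracted with a micro kit, target sites were amplified by PCR, barcoded, pooled and sequenced as paired-end Illumina reads. The deposited values are fractions between 0 and 1, in windows of 26 bases (3 flanking bases, a protospacer of 20 and a PAM of 3). The authors gave 2 decimals at most bases and 4 to 6 at the target. More than 2 decimals were also given at *Tet2* C16 and within the *Tet3* window. The genome build is mm10 in the submitters' processing notes, and the aligner and filters are not given in the sources used here. Shares were multiplied by 100, and the *Dnmt3a* window was turned to the guide strand. The 4 shares of a base added up to 100 within 1 point. Read depth is unknown, and reads had no molecular identifiers, so PCR from few templates can shift a share.

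All names in the 6KO table hold the term 6KO, so controls were told apart by the ending C in place of a number. Embryos are separate animals. How embryos were picked for sequencing is not given in the sources used here, so an effect of selection on the shares was not tested. Per the study, only a minority of the analysed blastocysts were 6KO. The shares thus describe embryos named 6KO and not the yield of the injection. Tests were exact permutation tests by full enumeration in Python 3.11.15 (figures with matplotlib 3.10.9), with a threshold of 0.05 after Benjamini-Hochberg adjustment, tested on simulated data first. All 6 targeted genes are named, a bystander where its mean T share over the edited embryos was at least 5%, and an embryo where it was lowest or highest. Members, lists and tests were chosen with earlier results of these data known. Alternatives were T over T plus C, the logit (shares held between 0.001 and 0.999), subsets of embryos and controls, blocks by stage or number, other readings of *Dnmt3a* and of the wild-type share, and thresholds of 1% and 10% for naming. Tables of the other 3 groups were used only to count embryos.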

Additional observations from a re-analysis of the deposited data

Results flagged for a closer look

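At the *Dnmt3b* target, E8.5 number 3 had T in 97.5% of reads and lay farther below the other 8 edited embryos than expected from their range, with a gap to the next embryo of 0.574 of the whole range. At *Tet1* C2, E7.5 number 3 had T in 69% of reads while the next highest embryo had 5%, a gap of 0.928 of the range. About 1 in 20 groups is singled out this way by chance, and 11 were examined.

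*Tet1* C2 was also the 1 named bystander whose stage test passed after adjustment, with a mean T share of 2.67% at E6.5, 26% at E7.5 and 0% at E8.5. The exact permutation test gave an adjusted p of 0.0357 over 5 bystanders, which was not kept without E7.5 number 3 or without E6.5 number 1. *Tet1* C2 met the naming threshold only through E7.5 number 3, so naming and test rest on the same value. Over all 32 reference C, 0% had an adjusted p under 0.05 in the same test.

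Bases other than C were read differently from the reference in the *Dnmt1* windows of 2 edited embryos. The mean share of wrong bases was 2.40% in E6.5 number 1 and 1.40% in E7.5 number 3, against 0% in the *Dnmt1* windows of all 3 controls.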

How the results depend on the processing

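All 6 targets passed against controls under every alternative except means per embryo number, where 0 passed because 3 values against 3 cannot go below 0.10. In what follows, labelled numbers alone and leaving out number 3 hold the same embryos, so they are 1 alternative under 2 names. The count of bystanders past the threshold, 3, fell to 0 with labelled numbers alone, without E6.5, with stage as a block and without any 1 number (0 to 0), and rose to 4 (with *Tet1* C4) as logits and with the same-stage control subtracted. The target stage count rose from 0 to 1 on the logit scale. The bystander stage count, 1, fell to 0 with labelled numbers alone, without any 1 number (0 to 0), and, chosen after seeing the data, without E6.5 number 1 or E7.5 number 3. With 2 embryos a stage the smallest exact p is 0.0667. The count of gene pairs, 4, fell to 0 with labelled numbers alone, without E6.5 and without any 1 number (0 to 0); it was 6 on the logit scale, 4 with T over T plus C and 5 without either E6.5 number 1 or E7.5 number 3. With T over T plus C, *Tet2* minus *Dnmt1* passed in place of *Tet1* minus *Dnmt1*. The 6KO comparisons past the threshold, 6, fell to 0 with labelled numbers alone and without any 1 number (0 to 0), and to 4 with all stages (without *Dnmt3b* against *Dnmt*-TKO and *Tet1* against 5KO), and rose to 7 (with *Dnmt1* against 4KO) with T over T plus C. Where few embryos are left, these exact tests can hardly pass. Deviations of same-numbered embryos correlated between -0.44 and 0.43, over 8 to 10 values each. These are too few to settle whether an embryo number marks a shared factor. With the replicate block 6 of 12 comparisons passed. *Tet2* was lowest in 0 embryos without E6.5. The highest upper bound was 46.9% for every base but T, 24.8% without E6.5 and 25.4% to 33.5% without 1 number. The median upper bound ran from 14.2% to 22.2%. Naming bystanders at 1% or 10% gave 6 and 4 in place of 5.

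Differences that had not passed changed sign as follows. With T over T plus C, *Tet1* minus *Tet2*, *Tet3* and *Dnmt3a* became 0.55, 0.45 and 0.38 points and *Tet2* minus *Tet3* became -0.10. As logits, *Tet2* and *Tet3* minus *Dnmt3a* became 0.20 and 0.0612. With labelled numbers alone *Dnmt1* minus *Dnmt3b* became -0.0882. Without E6.5, *Tet2* and *Tet3* minus *Dnmt3a* became 1.11 and 0.55. Without 1 number, *Tet1* minus *Dnmt3a* ran from -1.39 to 0.0863, *Tet2* minus *Tet3* from -0.0597 to 0.12, *Tet2* minus *Dnmt3a* from -0.46 to 0.42, *Tet3* minus *Dnmt3a* from -0.58 to 0.48 and *Dnmt1* minus *Dnmt3b* from -0.15 to 0.43. Without E7.5 number 3 *Tet2* minus *Tet3* became -0.25, and without E6.5 number 1 *Tet2* and *Tet3* minus *Dnmt3a* became 0.57 and 0.34. For 6KO minus *Dnmt*-TKO at *Dnmt3a* the logit gave -0.0512, all stages -0.31 and leaving out 1 number -0.35 to 0.89. For 6KO minus 5KO at *Tet2* these were -0.28, -0.71 and -0.17 to 0.78. The cause was not tested.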
